A study of Mus musculus with 10 samples.

Results

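Macrophages of the newborn mouse testis were described through 10 genes that mark these cells, picked by symbol from a table of read counts per gene. All 10 genes (Lyz2, C1qa, C1qb, C1qc, Fcgr3, Csf1r, Adgre1, Cd68, Mrc1 and Gpnmb) were among the 25239 genes of the table, and all 10 passed the filter on low counts that left 18419 genes for testing. The rule names the genes as macrophage markers and uses no difference between the groups, but it was set with earlier results of these data known. The samples were testes of C57BL/6 mice taken on postnatal day 4 (P4) or day 7 (P7). At each age 2 libraries came from wild type (WT) testes and 3 from testes with the genotype label Lsm7-flfl-stra8 (cKO). Lsm7 codes for a subunit of the ring of LSm proteins that binds U6 RNA and takes part in splicing and mRNA decay. No treatment was recorded, and no other allele was named for either genotype. The name stra8 is that of a gene active in germ cells, and the labels do not say which Cre line or promoter it stands for. The labels give germ cell as the cell type, whereas the protocol extracted total RNA from the testis and describes no sorting step, so every library held RNA of the whole organ.

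Tissue macrophages arise from embryonic progenitors and from blood monocytes, depend on the receptor Csf1r for survival, and clear dying cells and debris. In the testis they lie in the interstitium beside Leydig cells and on the surface of the tubules, and they are known for high Mrc1 in the interstitium and for class II histocompatibility genes in the cells around the tubules. The genes followed here cover the growth factor receptor of the lineage (Csf1r), a surface marker (Adgre1, which codes for F4/80), receptors that bind antibody (Fcgr3) or mannose (Mrc1), the 3 chains of C1q, which starts the classical complement pathway, and proteins of granules or lysosomes (Lyz2, Cd68, Gpnmb). In RNA from whole testis, fewer macrophages and less RNA of a gene per macrophage cannot be told apart. The labels do not say whether the libraries of a group came from separate animals, so p-values measure the spread between these libraries, which may be technical.

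The libraries held 28799371 to 41797353 counted reads, of which 1776 to 6224 fell in the 10 genes. The 2 P7 WT libraries differed by little more than counting noise (a chi-square of 1.98 for each degree of freedom, where other pairs of the same group gave 23.49 to 122.88), and their counts were summed and used as 1 sample, which left 9 samples. P7 WT values therefore have no SD. Lsm7, the targeted gene, was at 36.2 and 25.7 CPM (reads scaled to a common library size with edgeR's TMM factors, as counts per 1000000 reads) in P4 WT and at 44.9, 50.5 and 43.6 CPM in P4 cKO. At P7 the cKO libraries had 45.2, 26 and 20.3 CPM of Lsm7, against 33.3 CPM in WT. Neither difference in Lsm7 passed the test (log2 fold change 0.58, SE 0.30, edgeR adjusted p = 0.215 at P4, and -0.13, SE 0.37, adjusted p = 0.835 at P7), and all 3 cKO libraries lay above both WT libraries at P4, whereas 1 lay above and 2 below WT at P7. Lsm7 reads therefore give no check of the labels, and cKO stands below for the libraries so labelled. A set of 8 neutrophil genes summed to 122 CPM in P4 cKO library 2 and to 38.7 CPM in P7 cKO library 3, against 0.607 to 22.7 CPM in the other samples.

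The C1q genes lay side by side on the minus strand of chromosome 4 (GRCm38), C1qb at 136880126-136886200, C1qc at 136889802-136892914 and C1qa at 136895916-136898844. Lyz2 lay on chromosome 10 at 117277541-117282272, Mrc1 on chromosome 2 at 14229414-14332023, Gpnmb on chromosome 6 at 49036518-49058182, Cd68 on chromosome 11 at 69664213-69666170, Fcgr3 on chromosome 1 at 171051169-171059403 and Adgre1 on chromosome 17 at 57358686-57483529. The promoter windows of C1qb and C1qc are shown because the C1q chains moved together, that of Lyz2 because it moved most among the genes that passed the test at P4, and that of Mrc1 because it differed at P7. They run from 250 bases before to 50 bases after the annotated start and were taken from RefSeq (GRCm38.p6). They are printed along the gene's own strand, and capitals mark the letters GAGGAA or, on the other strand, TTCCTC. These are a sequence bound by PU.1, a transcription factor of macrophages encoded by Spi1. The positions are chr4:136886151-136886450 for C1qb, chr4:136892865-136893164 for C1qc, and chr10:117282223-117282522 for Lyz2, each on the minus strand, and chr2:14229164-14229463 on the plus strand for Mrc1.
C1qb: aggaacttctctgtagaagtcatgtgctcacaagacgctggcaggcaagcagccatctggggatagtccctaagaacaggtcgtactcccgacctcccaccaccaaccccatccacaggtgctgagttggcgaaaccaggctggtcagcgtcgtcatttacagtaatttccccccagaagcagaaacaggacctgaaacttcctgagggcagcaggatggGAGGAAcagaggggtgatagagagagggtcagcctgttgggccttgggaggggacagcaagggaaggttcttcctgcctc
C1qc: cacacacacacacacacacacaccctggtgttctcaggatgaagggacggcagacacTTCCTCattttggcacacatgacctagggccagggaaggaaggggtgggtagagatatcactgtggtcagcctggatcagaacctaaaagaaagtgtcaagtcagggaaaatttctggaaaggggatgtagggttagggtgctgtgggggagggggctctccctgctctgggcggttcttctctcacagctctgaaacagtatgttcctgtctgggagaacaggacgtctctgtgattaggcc
Lyz2: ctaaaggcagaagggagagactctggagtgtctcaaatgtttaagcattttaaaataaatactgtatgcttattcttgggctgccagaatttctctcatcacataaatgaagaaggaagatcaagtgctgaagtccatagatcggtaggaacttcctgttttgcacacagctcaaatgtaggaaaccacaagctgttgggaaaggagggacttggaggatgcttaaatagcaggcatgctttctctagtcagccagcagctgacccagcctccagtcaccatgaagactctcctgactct
Mrc1: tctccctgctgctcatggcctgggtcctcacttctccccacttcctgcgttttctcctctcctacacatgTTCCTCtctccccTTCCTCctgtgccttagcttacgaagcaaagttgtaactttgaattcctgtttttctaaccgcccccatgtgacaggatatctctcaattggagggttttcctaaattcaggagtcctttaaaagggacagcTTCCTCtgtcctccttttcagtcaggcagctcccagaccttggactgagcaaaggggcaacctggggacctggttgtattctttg
The letters stood 30 bases before the start of C1qb, 193 bases before that of C1qc, and 180, 167 and 35 bases before that of Mrc1, and were not in the Lyz2 window. Over all promoter windows found for these genes, 6 of 8 windows of 7 genes held the letters on either strand, against 28.3% of 32851 windows of all genes. Fcgr3 gave overlapping windows with the same match, 15 and 6 bases before their starts, so that site is counted more than once. No window was found for C1qa, Csf1r or Adgre1. CACGTG, the box bound by MITF and TFE factors, which act on lysosomal genes, was in 0 of the 8 windows and in 7.2% of all windows. A match of 6 letters is a description of the sequence and not a binding site.

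Per length of exon, Cd68 and Lyz2 stood highest among the 10 genes in P4 WT testis and Adgre1 lowest. On the scale of reads per kilobase of exon on the same library sizes (RPKM), Cd68 was at 10.9 ± 0.224 (SD, n = 2) and Lyz2 at 10.2 ± 4.23 (SD, n = 2), which lay within the spread of Lyz2. They were followed by C1qa at 5.79 ± 0.138, C1qb at 5.33 ± 0.0166, Csf1r at 4.83 ± 0.617, Mrc1 at 4.52 ± 0.469 and C1qc at 4.46 ± 0.848 RPKM (SD, n = 2 each), and of these Csf1r, Mrc1 and C1qc differed by less than their SDs. Fcgr3 was at 2.47 ± 0.661, Gpnmb at 0.299 ± 0.115 and Adgre1 at 0.176 ± 0.0688 RPKM (SD, n = 2 each). In P4 cKO the order was led by Lyz2 at 34.3 ± 17.3 RPKM, then C1qa at 12.4 ± 1.18, C1qc at 10.5 ± 3.05, C1qb at 10.5 ± 2.43 and Cd68 at 10.0 ± 1.144 RPKM (SD, n = 3 each), and of these C1qc, C1qb and Cd68 differed by less than their SDs. In P7 WT Lyz2 was at 8.73, Mrc1 at 6.71 and Cd68 at 5.77 RPKM. Mrc1 then lay above the C1q chains, which were between 3.37 and 4.05 RPKM, whereas in P4 WT it lay below C1qa and C1qb. In P7 cKO Cd68 at 7.21 ± 1.95 RPKM and C1qa at 5.64 ± 1.15 RPKM (SD, n = 3 each) led, and Mrc1 was at 2.84 ± 0.494 RPKM. The lowest of the 10 genes, Adgre1 and Gpnmb, rested on few reads, 14 to 88 reads per library for Adgre1 and 6 to 490 for Gpnmb.

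**Figure D1:**
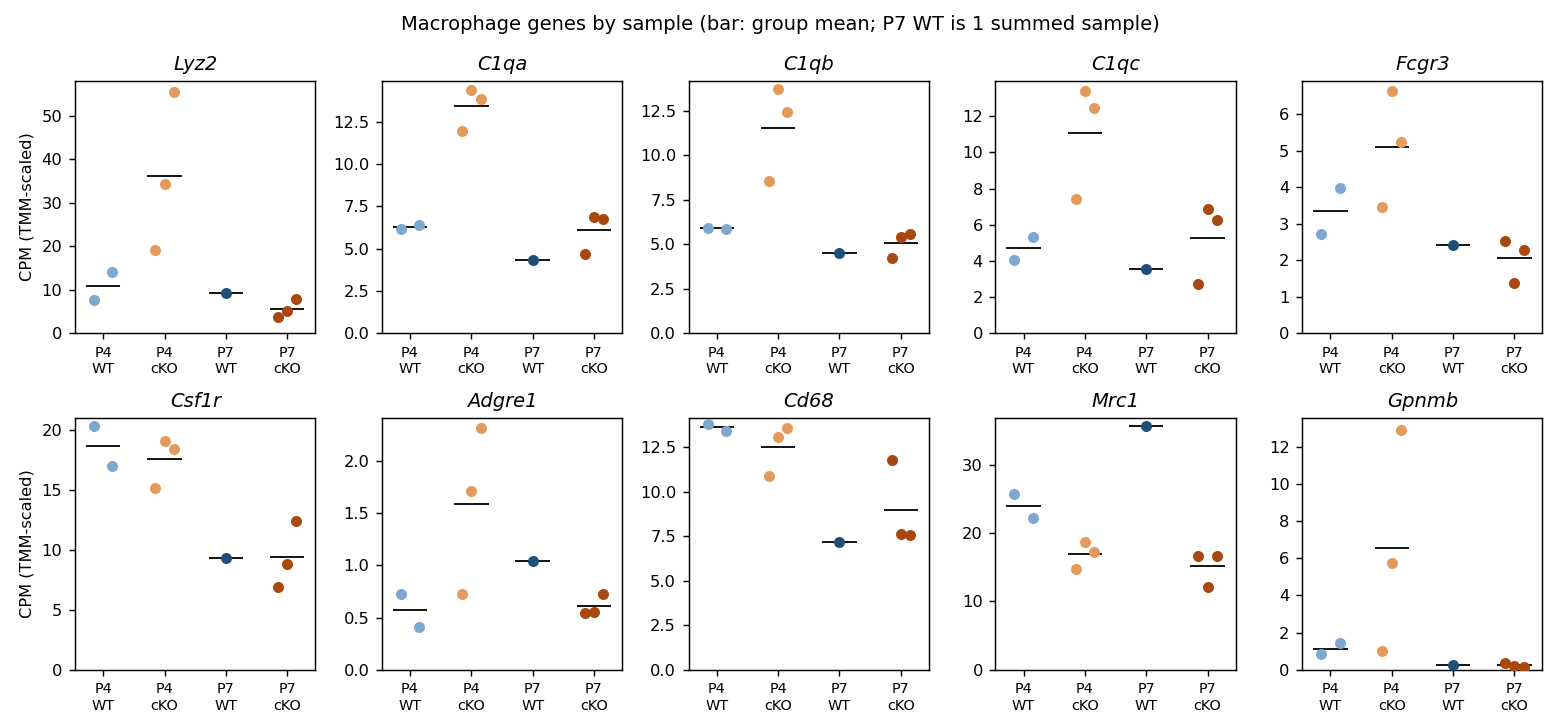
Level of each of the 10 macrophage genes in each of the 9 samples, in CPM on an axis from 0, with a panel per gene and the 4 groups along the x axis. Each point is a sample and each line a group mean. The P4 cKO samples lie above both P4 WT samples for Lyz2 and the C1q chains, while Mrc1 is highest in the P7 WT sample at 35.7 CPM.

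The first comparison asked how the macrophage genes stood in cKO testis at P4. C1qa, C1qb and Lyz2 rose, by 2.14-fold, 1.96-fold and 3.35-fold in mean CPM, while Csf1r and Cd68 lay at about the WT level and Mrc1 was lower in each cKO library without passing the test. The 3 genes that rose were 3 of 10, and 0 of 10 fell, where 8.96% of all genes tested were called and 4.84% were called higher and 4.13% lower. The median log2 fold change over the 10 genes was 1.04, against 0.00 over all genes. Values of cKO and WT did not overlap for 4 genes that were higher (24.1% of all genes were) and for 1 that was lower (25.6% of all genes were).

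C1q is made of 3 chains that are assembled into 1 protein, and macrophages are its main source. C1qa was at 6.16 and 6.37 CPM in P4 WT and at 11.97, 14.4 and 13.9 CPM in P4 cKO. C1qb was at 5.89 and 5.87 CPM in P4 WT and at 8.53, 13.7 and 12.4 CPM in P4 cKO. C1qc was at 4.07 and 5.33 CPM in P4 WT and at 7.43, 13.4 and 12.5 CPM in P4 cKO. For each chain all 3 cKO libraries lay above both WT libraries, with cKO library 1 the lowest of the cKO libraries. The log2 fold change was 1.10 (SE 0.25, edgeR adjusted p = 0.0254) for C1qa and 0.97 (SE 0.27, adjusted p = 0.045) for C1qb. For C1qc it was 1.24 (SE 0.40, edgeR adjusted p = 0.0712), which missed the threshold of 0.05, so the chain with the greatest difference was the one that was not called. DESeq2 called C1qc too (adjusted p = 0.0171).

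Lyz2 codes for lysozyme, an enzyme that cuts bacterial cell walls and is made by macrophages and by neutrophils. It was at 7.68 and 14.0 CPM in P4 WT and at 19.0, 34.3 and 55.4 CPM in P4 cKO. The groups did not overlap, and the cKO libraries spread more widely than for any C1q chain. The log2 fold change was 1.74 (SE 0.47, edgeR adjusted p = 0.0447). Its copy Lyz1, which shares 6.0% of the 75-base words of Lyz2, had 0 to 2 reads per library. The 8 neutrophil genes summed to 9.50 and 14.7 CPM in P4 WT and to 22.7, 122 and 20.5 CPM in P4 cKO, and 0 of 8 passed the edgeR test (1 at an unadjusted p under 0.05, 0 in DESeq2 and 0 in limma-voom). Lyz2 was highest in cKO library 3, not in library 2 where the neutrophil genes were highest. The part of neutrophil RNA in the Lyz2 difference was not tested.

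**Figure D2:**
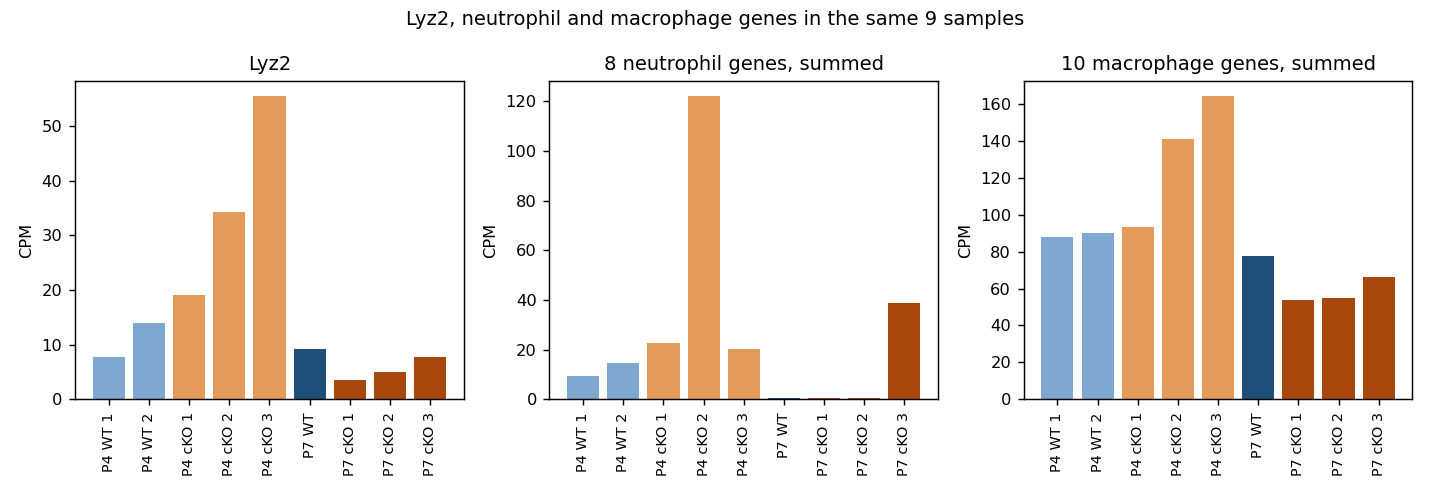
Bars give the level of Lyz2, the sum of 8 neutrophil genes and the sum of the 10 macrophage genes in each of the 9 samples, in CPM from 0, coloured by group. The P4 cKO sample with the highest neutrophil sum, 122 CPM, is not the sample with the highest Lyz2, 55.4 CPM, which has a neutrophil sum of 20.5 CPM.

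Gpnmb codes for a membrane glycoprotein of macrophages and pigment cells that is known to be made when lysosomes are under stress. It was at 0.827 and 1.44 CPM in P4 WT and at 0.983, 5.75 and 12.9 CPM in P4 cKO. Library 1 of cKO lay between the WT libraries and the other 2 cKO libraries lay far above them. The log2 fold change of 2.52 (SE 0.84, edgeR adjusted p = 0.0824) was the greatest of the 10 genes and did not pass. DESeq2 called it (adjusted p = 0.0066). Adgre1 showed a like order, at 0.728 and 0.413 CPM in P4 WT and at 0.723, 1.71 and 2.32 CPM in P4 cKO, and its log2 fold change was 1.48 (SE 0.54, edgeR adjusted p = 0.103).

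Fcgr3, a receptor for IgG that shares 7.4% of its 75-base words with Fcgr2b, was at 2.71 and 3.98 CPM in P4 WT and at 3.44, 6.64 and 5.24 CPM in P4 cKO. The groups overlapped and the log2 fold change was 0.61 (SE 0.37, edgeR adjusted p = 0.291). Csf1r, the receptor on which the lineage depends, was at 20.4 and 17.0 CPM in P4 WT and at 15.2, 19.1 and 18.4 CPM in P4 cKO, with a log2 fold change of -0.09 (SE 0.25, adjusted p = 0.843). Cd68, a glycoprotein of the lysosomal membrane, was at 13.8 and 13.4 CPM in P4 WT and at 10.9, 13.1 and 13.6 CPM in P4 cKO, with a log2 fold change of -0.12 (SE 0.24, adjusted p = 0.767). For both genes the cKO values overlapped the WT values. Mrc1, the mannose receptor, was at 25.8 and 22.2 CPM in P4 WT and at 14.8, 18.7 and 17.3 CPM in P4 cKO. All 3 cKO libraries lay under both WT libraries, and the log2 fold change was -0.50 (SE 0.21, edgeR adjusted p = 0.136).

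The calls at P4 were lost without any of 4 libraries. When library 1 or 2 of P4 WT or library 2 or 3 of P4 cKO was left out, 0 of 10 genes were called in edgeR. The log2 fold change of C1qa was then, in that order, 1.07, 1.12, 1.04 and 1.06 (edgeR adjusted p = 0.231, 0.0704, 0.0834 and 0.0923), that of C1qb 0.97, 0.97, 0.82 and 0.91 (adjusted p = 0.288, 0.116, 0.137 and 0.138), and that of Lyz2 1.37, 2.24, 1.77 and 1.29 (adjusted p = 0.346, 0.0662, 0.0942 and 0.133). The sizes of the C1qa and C1qb differences thus moved little while the calls were lost. Without P7 cKO library 2, C1qb and Lyz2 missed the threshold (adjusted p = 0.0633 and 0.055), and without P7 cKO library 3, C1qb did (adjusted p = 0.0608). Leaving out P4 cKO library 1 brought 4 calls, with Gpnmb added (log2 fold change 3.02, adjusted p = 0.037), and the fit that omitted P7 cKO library 1 brought 4, with C1qc added (log2 fold change 1.24, adjusted p = 0.00643). Calls over all genes moved too, but not always in the same direction. Without P4 cKO library 1 they went down while the calls among the 10 genes went up. With every library 891 were higher and 760 lower, against 0 and 2 without P4 WT library 1, 456 and 360 without P4 WT library 2, 4 and 9 without P4 cKO library 2, and 2 and 9 without P4 cKO library 3. There were 336 and 234 without P4 cKO library 1, 2241 and 1916 without P7 cKO library 1, 649 and 583 without P7 cKO library 2, and 597 and 511 without P7 cKO library 3. A count of 0 of 10 in a fit that called almost no gene is no result about the macrophage genes. That remark does not cover the fit without P4 WT library 2, which still called genes among all those tested. It left 1 library in P4 WT.

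Length and base composition moved with these differences. Lyz2 and the C1q chains were the shortest of the 10 genes, with 1054 to 1104 bases of exon, and the C1q chains held 57.4 to 59.5% G and C, against a median of 48.6% over all genes. Among 1544 genes of 1000 to 1400 bases the median log2 fold change at P4 was 0.15 and 8.42% were called higher, while among 5773 genes of 3000 to 5500 bases it was -0.02 and 3.07% were called higher. With offsets for length and G and C content in the model, the log2 fold change was 0.65 for C1qa (edgeR adjusted p = 0.132), 0.59 for C1qb (adjusted p = 0.179), 0.84 for C1qc (adjusted p = 0.206) and 1.53 for Lyz2 (adjusted p = 0.0676), and 0 of 10 genes were called, where 327 of all genes were called higher and 323 lower. C1qa and C1qb moved by more than their SE, as did Cd68, which went from -0.12 to -0.39. Of the 4 longest genes, Gpnmb (2.52 with and without offsets) and Adgre1 (1.48 and, with offsets, 1.49) hardly moved, Mrc1 went from -0.50 to -0.36 and Csf1r from -0.09 to -0.18.

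**Figure D3:**
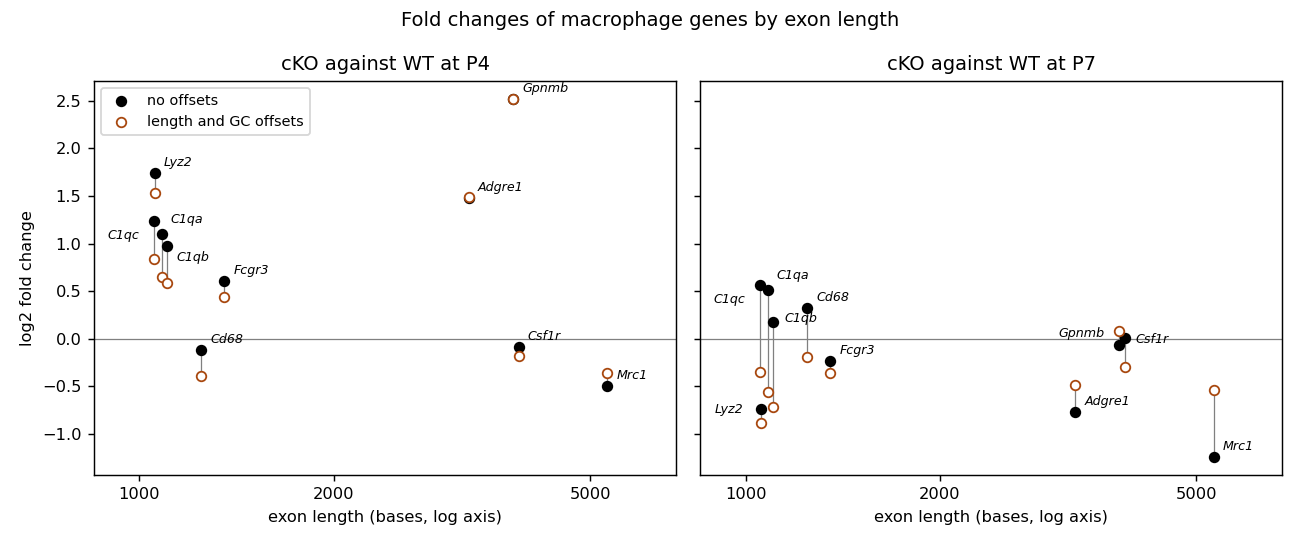
Log2 fold change of cKO against WT at P4 and at P7 for the 10 macrophage genes against exon length in bases on a log axis; filled points are from the model without offsets and open points from the model with offsets for length and G and C content, joined by a line per gene. At P7 the C1q chains pass from above 0 to below it, and Mrc1, the longest gene, goes from -1.24 to -0.54.

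The second comparison put cKO against WT at P7. Mrc1 fell, to 0.424 of its WT mean, and no other macrophage gene passed the test. This was 1 of 10 genes, where 17.0% of all genes tested were called and 9.72% were called lower and 7.26% higher. The share that fell is near that of all genes. The median log2 fold change over the 10 genes was -0.03, against 0.08 over all genes. The cKO values lay wholly above the WT value for 2 genes (36.2% of all genes did) and wholly below it for 3 (34.6% of all genes did), with WT a single sample.

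Mrc1 marks the interstitial macrophages of the testis and takes up glycoproteins that end in mannose. It was at 35.7 CPM in P7 WT and at 16.6, 12.1 and 16.6 CPM in P7 cKO, and all 3 cKO libraries lay below the lowest WT level of either age. The log2 fold change was -1.24 (SE 0.25, edgeR adjusted p = 0.0112). WT is 1 sample here, so the test takes its spread from the other groups. The call held in 19 of 21 alternative analyses, among them each of the 10 that left out a library, of which the 2 that left out a P7 WT library removed 1 of 2 nearly identical libraries. It was not made when only the P7 samples were fitted (-1.27, adjusted p = 0.0742), where 0 of 17832 genes were called, or with the offsets for length and G and C content (-0.54, adjusted p = 0.381), where 0 of 18419 genes were called higher and 2 lower. Mrc1 is the longest of the 10 genes (5318 bases) and the poorest in G and C (43.4%), and of the genes of 3000 to 5500 bases 14.2% were called lower at P7, against 1.23% of those of 1000 to 1400 bases. The part of length and composition in the Mrc1 difference was not tested beyond these values.

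Lyz2 was at 9.23 CPM in P7 WT and at 3.62, 5.10 and 7.75 CPM in P7 cKO, the reverse of its order at P4, with a log2 fold change of -0.74 (SE 0.54, edgeR adjusted p = 0.362). C1qa was at 4.30 CPM in P7 WT and at 4.68, 6.88 and 6.76 CPM in P7 cKO (log2 fold change 0.51, SE 0.31, adjusted p = 0.274). C1qb was at 4.47 CPM in P7 WT and at 4.19, 5.40 and 5.59 CPM in cKO (log2 fold change 0.18, SE 0.33, adjusted p = 0.739). C1qc was at 3.55 CPM in P7 WT and at 2.704, 6.86 and 6.27 CPM in cKO (log2 fold change 0.57, SE 0.50, adjusted p = 0.451). For all 3 chains P7 cKO library 1 was the lowest of the cKO libraries. With the offsets the log2 fold changes of C1qa, C1qb and C1qc at P7 were -0.56, -0.72 and -0.35, so their sign at P7 depended on the scaling.

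Csf1r was at 9.33 CPM in P7 WT and at 6.93, 8.84 and 12.4 CPM in P7 cKO, with a log2 fold change of 0.01 (SE 0.32, edgeR adjusted p = 0.984). Cd68 was at 7.20 CPM in P7 WT and at 11.8, 7.61 and 7.56 CPM in cKO (log2 fold change 0.32, SE 0.32, adjusted p = 0.51), and only cKO library 1 stood apart. Fcgr3 was at 2.41 CPM in P7 WT and at 2.52, 1.38 and 2.29 CPM in cKO (log2 fold change -0.23, SE 0.46, adjusted p = 0.76). The surface marker Adgre1 was at 1.04 CPM in P7 WT and at 0.547, 0.553 and 0.729 CPM in cKO (log2 fold change -0.77, SE 0.62, adjusted p = 0.413). Gpnmb was at 0.243 CPM in P7 WT and at 0.365, 0.201 and 0.146 CPM in cKO (log2 fold change -0.06, SE 1.23, adjusted p = 0.978); these levels rested on 6 to 12 reads per library.

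**Figure D4:**
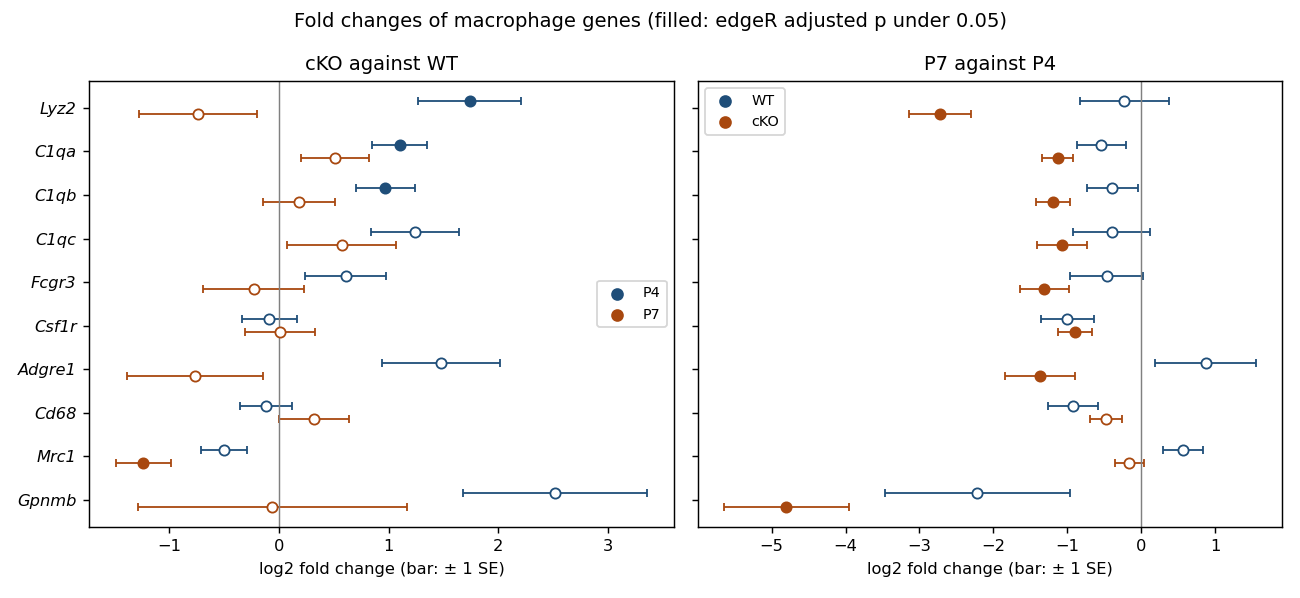
Log2 fold changes of the 10 macrophage genes, cKO against WT at P4 and P7 in the left panel and P7 against P4 in WT and cKO in the right panel; bars are 1 SE either side and filled points have an edgeR adjusted p under 0.05. In the left panel C1qa, C1qb and Lyz2 are filled at P4 and Mrc1 at P7, and in the right panel 8 genes are filled in cKO and 0 in WT.

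The course from P4 to P7 was then set out for each genotype. These comparisons use the same samples as those of the genotypes, so their values stand side by side and are not independent. In cKO, 8 of 10 genes fell from P4 to P7, where 29.2% of all genes tested were called and 14.7% were called lower, and the median log2 fold change was -1.16 against 0.00 over all genes. In WT, 0 of 10 genes passed the edgeR test (2 at an unadjusted p under 0.05, 2 in DESeq2 and 1 in limma-voom), where 21.8% of all genes were called, and the median was -0.44 against -0.03 over all genes. The P7 values lay wholly below those of P4 for 7 of 10 genes in cKO (23.2% of all genes did) and wholly above them for 0 (22.9% of all genes did). In WT, where P7 is 1 sample, they lay below for 7 of 10 (42.8% of all genes did) and above for 2, Adgre1 and Mrc1 (42.6% of all genes did).

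Gpnmb fell by 4.80 on the log2 scale in cKO (SE 0.84, edgeR adjusted p = 0.00209), from 0.983 to 12.9 CPM at P4 to 0.146 to 0.365 CPM at P7. Lyz2 fell by 2.72 (SE 0.42, adjusted p = 0.00102), from 19.0 to 55.4 CPM to 3.62 to 7.75 CPM, to 0.151 of its P4 mean. These were the 2 genes with the highest SD in CPM among the P4 cKO libraries. The C1q chains fell together, C1qa by 1.13 (SE 0.21, adjusted p = 0.00258), C1qb by 1.19 (SE 0.23, adjusted p = 0.0034) and C1qc by 1.07 (SE 0.34, adjusted p = 0.0364). In WT the same chains had log2 fold changes of -0.54, -0.39 and -0.40 (adjusted p = 0.248, 0.443 and 0.604), and with the offsets for length and composition 0.14, 0.17 and 0.18.

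Csf1r was the gene with the most alike course in both genotypes. It fell by 0.90 in cKO (SE 0.23, edgeR adjusted p = 0.013), and in WT its log2 fold change was -1.0 (SE 0.36, adjusted p = 0.0641). Fcgr3 fell by 1.31 in cKO (SE 0.33, adjusted p = 0.0125), against -0.47 in WT (SE 0.49, adjusted p = 0.512). Adgre1 fell by 1.37 in cKO (SE 0.47, adjusted p = 0.0448), although its P4 and P7 values overlapped, and its log2 fold change in WT was 0.87 (SE 0.68, adjusted p = 0.37). Cd68 did not pass in cKO (-0.48, SE 0.22, adjusted p = 0.122) or in WT (-0.92, SE 0.34, adjusted p = 0.0734). Mrc1 was the flattest of the 10 genes in cKO, at -0.16 (SE 0.19, adjusted p = 0.548), and in WT it was 0.57 (SE 0.27, adjusted p = 0.151), from 25.8 and 22.2 CPM at P4 to 35.7 CPM at P7.

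Lyz2, C1qa and C1qb kept their fall in cKO in all 21 alternative analyses. Gpnmb kept it in 20 and missed in limma-voom (-4.21, adjusted p = 0.0512), where Adgre1 missed too (-1.22, adjusted p = 0.0911). With library totals, C1qc (-0.89, edgeR adjusted p = 0.0628) and Adgre1 (-1.18, adjusted p = 0.0706) missed. With the offsets for length and composition, C1qc missed (-1.01, edgeR adjusted p = 0.0579). Without P4 cKO library 2 the count was 4 of 10, with C1qc (-0.92, edgeR adjusted p = 0.121), Fcgr3 (-1.08, adjusted p = 0.063), Csf1r (-0.84, adjusted p = 0.0508) and Adgre1 (-1.32, adjusted p = 0.112) lost. C1qc also missed without P4 cKO library 3 (-0.98, adjusted p = 0.106), and Fcgr3 without P7 cKO library 2 (-1.09, adjusted p = 0.0501). Adgre1 missed without P4 cKO library 3 (-0.99, adjusted p = 0.208) and without P7 cKO library 1, 2 or 3 (adjusted p = 0.0627, 0.119 and 0.068), and Cd68 passed without P7 cKO library 1 (-0.72, adjusted p = 0.0126). In WT, Csf1r passed without P7 cKO library 1 or 3 (adjusted p = 0.015 and 0.0456) and Cd68 without P7 cKO library 1 (adjusted p = 0.0164). Without P4 cKO library 2 and P7 cKO library 3 together, the libraries with the most neutrophil RNA in their groups, 5 of 10 genes fell in cKO (1413 of 18326 genes did), 0 of 10 passed between the genotypes at P4 (4 genes higher and 7 lower did) and Mrc1 alone of the 10 passed at P7 (357 genes higher and 696 lower did).

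Whether the genotype difference changed from P4 to P7 was tested as an interaction. In edgeR 0 of 10 genes passed (3 at an unadjusted p under 0.05, 1 in DESeq2 and 0 in limma-voom), as did 0.0% of all genes. The greatest values were those of Gpnmb at -2.58 (SE 1.48, adjusted p = 0.291), Lyz2 at -2.49 (SE 0.70, adjusted p = 0.0865) and Adgre1 at -2.24 (SE 0.81, adjusted p = 0.13). DESeq2 called Lyz2 (-2.47, adjusted p = 0.00967). Mrc1 stood at -0.73 (SE 0.33, edgeR adjusted p = 0.196), so its difference at P7 was not shown to differ from that at P4.

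Ratios between genes of 1 sample do not depend on a scaling that is the same for all genes of the sample. The ratio of C1qa to Csf1r in CPM was 0.302 and 0.374 in P4 WT and 0.787, 0.754 and 0.753 in P4 cKO, so the 3 cKO libraries stood close together and above WT. It was 0.461 in P7 WT and 0.675, 0.778 and 0.543 in P7 cKO, again above WT in each cKO library. The ratio of C1qa to Mrc1 separated the genotypes more widely, at 0.239 and 0.286 against 0.810, 0.770 and 0.803 at P4, and at 0.121 against 0.282, 0.570 and 0.406 at P7. Mrc1 to Csf1r was 1.26 and 1.31 in P4 WT, 0.971, 0.980 and 0.937 in P4 cKO, 3.83 in P7 WT, and 2.40, 1.37 and 1.34 in P7 cKO. The ratios were computed after the levels were known and carry no test, and those between a short and a long gene carry the dependence on length given above.

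**Figure D5:**
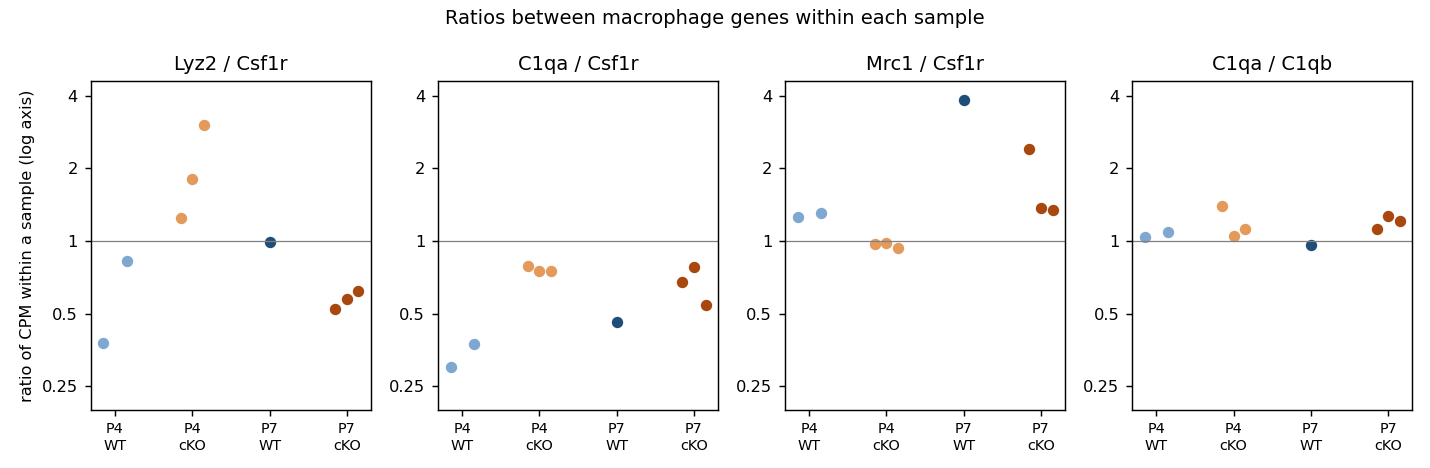
Ratios of macrophage genes within each of the 9 samples, in CPM over CPM on a log axis, in 4 panels (Lyz2 to Csf1r, C1qa to Csf1r, Mrc1 to Csf1r and C1qa to C1qb) with the 4 groups along the x axis, where each point is a sample. C1qa to Csf1r stands between 0.753 and 0.787 in the P4 cKO samples, above both P4 WT samples, and Mrc1 to Csf1r is highest at 3.83 in the P7 WT sample.

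The C1q chains varied together. Over the 9 samples the Pearson correlation of log2 CPM was 0.97 for C1qa with C1qb, 0.93 for C1qa with C1qc and 0.92 for C1qb with C1qc, and the ratio in CPM ran from 0.961 to 1.40 for C1qa to C1qb, from 1.0 to 1.73 for C1qa to C1qc and from 0.788 to 1.55 for C1qb to C1qc. Lyz2 correlated with Gpnmb at 0.90 and with C1qb at 0.92, and Csf1r with Mrc1 at 0.16. Mrc1 had values of -0.43 with C1qa and -0.41 with C1qc. The samples differ in age and genotype and share library depth and scaling, so these values describe the 4 groups as much as the genes. The 10 genes summed to 88.1 and 90.1 CPM in P4 WT, 93.0, 141 and 164 CPM in P4 cKO, 77.5 CPM in P7 WT and 54.0, 54.9 and 66.2 CPM in P7 cKO. Mrc1 made up 46.1% of that sum in P7 WT and 10.5 to 15.9% of it in P4 cKO, and Lyz2 made up 33.8% of it in P4 cKO library 3. Without Lyz2 and Gpnmb the sum was 79.6 and 74.7 CPM in P4 WT and 73.0, 101 and 95.6 CPM in P4 cKO, which overlapped.

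The genes whose log2 CPM over the 9 samples was most like the mean z-score of the 10 macrophage genes were Micu2 (Pearson r 0.982), Tspan13 (0.975), Gng11 (0.972), Crispld1 (0.972) and Lhfpl2 (0.969). None of the 5 was on the lists of macrophage or leukocyte genes. Micu2 ran from 88.8 to 138 CPM and Crispld1 from 5.62 to 38.6 CPM, both highest in P4 cKO library 3. Of these 5, Gng11 alone passed at P4 (log2 fold change 0.79, edgeR adjusted p = 0.0457).

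Of 36 other macrophage and leukocyte genes tested, 2 rose in cKO at P4 and 0 fell, where 4.84% of all genes were called higher and 4.13% lower, with a median log2 fold change of 0.29. The share that rose is near that of all genes. They were Apoe, which codes for a lipid carrier made by macrophages, Leydig cells and others (80.0 and 73.3 CPM in WT, 156, 184 and 183 CPM in cKO, log2 fold change 1.19, edgeR adjusted p = 0.0114), and Ctss, a lysosomal protease of antigen-presenting cells (2.45 and 6.01 CPM in WT, 6.83, 17.5 and 19.1 CPM in cKO, log2 fold change 1.77, adjusted p = 0.0439). At P7, 1 of the 36 rose and 4 fell in cKO, with a median of -0.26. Of all genes, 7.26% were called higher and 9.72% lower, so the share that fell is near that of all genes. The gene that rose was Coro1a, and Cd86 and Cd53 were among those that fell (these 3 named after their values were seen). Those with the smallest p were Maf, a transcription factor of macrophages and of other cells (54.1 CPM in WT, 19.3, 19.1 and 25.2 CPM in cKO, log2 fold change -1.35, adjusted p = 0.00911), and Hpgds, a prostaglandin synthase (4.54 CPM in WT, 1.79, 1.51 and 1.73 CPM in cKO, log2 fold change -1.44, adjusted p = 0.0145). From P4 to P7, 0 rose and 7 fell in WT, and 2 rose and 19 fell in cKO, with medians of -0.26 and -0.95. Among all genes, 11.8% were called higher and 9.97% lower in WT, and 14.5% higher and 14.7% lower in cKO.

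Spi1, which codes for PU.1, was among the genes that fell from P4 to P7 in both genotypes (log2 fold change -1.72, edgeR adjusted p = 0.0131 in WT, and -1.49, adjusted p = 0.00128 in cKO). Csf1, the ligand of Csf1r, rose by 0.75 in cKO (adjusted p = 0.0079) and had a log2 fold change of 0.35 in WT (adjusted p = 0.342). Of 5 tested ligands and related receptors 0 passed between the genotypes in edgeR at P4 (0 at an unadjusted p under 0.05, 0 in DESeq2 and 0 in limma-voom) or at P7 (1, 1 and 0 by the same measures). Of all genes tested, 8.96% were called at P4 and 17.0% at P7. Spi1 and Csf1 are named for their part in the lineage, a choice made with their values known.

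Of 10 genes of class II and monocyte-derived macrophages, 0 passed at P4 in edgeR (3 at an unadjusted p under 0.05, 1 in DESeq2 and 0 in limma-voom) and 0 at P7 (0, 0 and 0 by the same measures). From P4 to P7, 1 rose in WT (F13a1) and 4 fell in cKO (Ccr2, H2-Aa, H2-Eb1 and Plac8), all named after their values were seen. Among all genes, 11.8% were called higher in WT and 14.7% lower in cKO. Most of the 10 genes leaned down in both genotypes. In WT 9 log2 fold changes were negative, with a median of -0.94, and in cKO 8 were, with a median of -1.07. Of 14 complement genes outside C1q, 0 rose and 2 fell at P4. These were Cd59a (log2 fold change -0.95, edgeR adjusted p = 0.0341) and Cd46 (-1.06, adjusted p = 0.045), which code for proteins that restrain complement. Cd46 fell at P7 too (-1.59, adjusted p = 0.014). Of 5 Fc receptor genes outside Fcgr3, Fcgrt, which carries IgG across cells, rose at P4 (1.17, adjusted p = 0.0179). Of 20 lysosome genes 6 rose and 0 fell at P4, with a median of 0.62, among them Ctsz (0.90, adjusted p = 0.0147), Hexa (0.83, adjusted p = 0.0225) and Cd63 (0.85, adjusted p = 0.0226). At P7 2 rose and 2 fell, of which Lamp2 (-1.47, adjusted p = 0.0161) and Ctsz (0.85, adjusted p = 0.0204) had the smallest p. Of all genes tested, 4.84% were called higher and 4.13% lower at P4, and 7.26% higher and 9.72% lower at P7. The shares of lysosome genes called at P7 are near those of all genes. These lysosome genes are expressed by most cells of the testis.

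Markers of other cells moved with these groups. At P4 the Leydig cell genes summed to 908 and 942 CPM in WT and to 1190, 1310 and 1250 CPM in cKO (3 of 8 rose), and the Sertoli cell genes to 2540 and 3420 CPM and to 5000, 4370 and 4900 CPM (4 of 8 rose). From P4 to P7 the endothelial genes went from 295 to 299 CPM to 162 CPM in WT, where 5 of 8 fell, and from 355 to 382 CPM to 125 to 181 CPM in cKO, where 7 of 8 fell. Over the same days the germ cell genes went from 233 and 326 CPM to 1480 CPM in WT and from 201 to 202 CPM to 979 to 1090 CPM in cKO, and 8 of 8 rose in both. Of all genes tested, 4.84% were called higher in cKO at P4. From P4 to P7, 9.97% were called lower and 11.8% higher in WT, and 14.7% lower and 14.5% higher in cKO. Erythroid genes summed to 33.3 CPM in P4 cKO library 2 and to 17.8 CPM in P7 WT, against 2.43 to 9.43 CPM elsewhere, with Hba-a1, Hba-a2, Hbb-bs and Hbb-bt at 0 reads in every library. The part of shifts in cell make-up or of blood in the macrophage genes was not tested.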

How the data were processed

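RNA of mouse testis was sequenced in 10 libraries (WT and cKO at P4 and P7). The authors deposited raw read counts per gene (whole numbers, per the file headers and values). STAR 2.7.11a, featureCounts (Subread 2.0.6), SAMtools 1.6, Trim Galore 0.6.10, FastQC 0.12.1 and MultiQC 1.14 and the build GRCm38 (mm10) are named in the submitters' processing notes. Whether strand was used, and what became of reads that match several places, is not given in the sources used here. No exon base of the 10 genes was shared with another gene of the table. Most counts under 50 were even (67.8 to 80.0% per library), as if each mate were counted, so intervals from reads would be too narrow and none is given.

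Samples were grouped by title. The counts were fitted with edgeR 4.0.16 (R 4.3.3; TMM, filterByExpr, robust quasi-likelihood test, two-sided, Benjamini-Hochberg over 18419 genes, threshold 0.05), with 1 mean per group, 9 samples and 5 residual degrees of freedom. RPKM is TMM-scaled CPM per kilobase of deposited exon length. Alternatives were other scalings and filters, DESeq2 1.42.0, limma 3.58.1 (voom), fewer or separate libraries, a replicate block, length and G and C offsets (mgcv 1.9.3, content from GENCODE for 96.5% of genes), each library left out, and, chosen after seeing the data, both libraries highest in neutrophil genes left out together. All 10 genes are named whatever their result. From each companion list the text names up to 3 genes with the smallest p at P4 and up to 2 at P7 among those past the threshold. The 10 genes and all lists were chosen with earlier results of these data known. A result on the complement list at P7 is not reported here.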

Additional observations from a re-analysis of the deposited data

How the results depend on the processing

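Of 10 genes, 3 were called between the genotypes at P4. The count was 5 with DESeq2, 5 with 10 separate libraries, 1 with limma-voom and 0 with length and G and C offsets. It was 0 to 4 with single libraries left out, and 0 without both libraries highest in neutrophil genes. Of all genes at P4, DESeq2 called 1562 higher and 1458 lower, 10 libraries 1482 and 1413, and limma-voom 897 and 740. The main fit called 891 and 760. At P7, 1 was called, and 0 when only the compared libraries were fitted and 0 with the offsets, fits that called 0 and 2 of all genes. From P4 to P7 in WT, 0 were called, against 1 with library totals, 1 with the minimum count of 50 and 1 with limma-voom. There were 2 with DESeq2, 2 with only the compared libraries, 2 with 10 libraries and 0 to 2 with single libraries left out. Of 18419 genes in this course, the main fit called 2179 higher and 1837 lower, and library totals 1871 and 2105. DESeq2 called 2488 and 2491, limma-voom 2368 and 1978, and the minimum count of 50 gave 2001 and 1966 of 15367. The fit of only the compared libraries called 2552 and 2406 of 17647, and 10 libraries 3582 and 3697 of 17602. Without P7 cKO library 1, the fit with 2 of 10, 3290 were higher and 3025 lower. In cKO, 8 fell, against 6 with library totals, 6 with limma-voom and 7 with the offsets. With single libraries left out 4 to 8 fell, and 5 without both libraries highest in neutrophil genes. Of all genes, 2709 fell in cKO in the main fit, 1818 with library totals, 2787 with limma-voom and 2906 with the offsets. Without P4 cKO library 2, the fit with 4 of 10, 1757 fell. For the interaction, 0 became 1 with DESeq2 and 1 with 10 libraries (1490 of all genes higher and 1615 lower, against 0 and 0). The cause was not tested where fewer samples do not give it.

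Signs turned for some values that were not called. With the offsets the log2 fold change was -0.56 for C1qa, -0.72 for C1qb, -0.35 for C1qc, -0.19 for Cd68, -0.30 for Csf1r and 0.08 for Gpnmb between the genotypes at P7, 0.14, 0.17 and 0.18 for C1qa, C1qb and C1qc from P4 to P7 in WT, and -0.11 for Csf1r in the interaction. Csf1r at P7 was -0.01 without a filter, -0.02 with limma-voom, -0.02 with only the compared libraries, and ran from -0.24 to -0.03 where leaving out a library turned it. Without both libraries highest in neutrophil genes it was -0.24, Gpnmb at P7 0.20 and the Csf1r interaction -0.09. With single libraries left out, Csf1r at P4 reached 0.05, Fcgr3 at P7 ran from -0.39 to 0.02, Gpnmb at P7 from -0.48 to 0.21, Lyz2 from P4 to P7 in WT from -0.61 to 0.26, and the Csf1r interaction from -0.15 to 0.28. With library totals Gpnmb at P7 was 0.04 and Mrc1 from P4 to P7 in cKO 0.02. That scaling put the median over all genes at -0.16 at P4, 0.19 at P7, -0.11 from P4 to P7 in WT and 0.18 in cKO. Over all genes at P4 it called 528 higher and 1544 lower, against 891 and 760.

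The replicate numbers did not pair the samples: deviations of same-numbered libraries correlated at 0.40 and -0.21 between P4 WT and P4 cKO, and at 0.11, -0.28 and 0.32 between P4 and P7 cKO. The replicate block was fitted with the P7 WT libraries kept apart, so it is set beside the fit of 10 libraries with no block. With the replicate block, 4 of the 10 genes were called at P4 (5 without it). At P7, 2 were called, Lyz2 at -1.14 and Mrc1 (1 without it). There were 2 from P4 to P7 in WT (2 without it), 8 in cKO (8 without it) and 2 in the interaction (1 without it). Of 17602 genes, the block fit called 1496 higher and 1236 lower at P4, and 3791 and 3647 at P7. In the interaction it called 1977 and 2334. From P4 to P7 it called 3931 and 3881 in WT and 3232 and 3482 in cKO. Without the block, 3648 were higher and 3257 lower at P7, and 3100 and 3212 in the cKO course. Csf1r at P7 was -0.13 with the block. Depth limits Adgre1 and Gpnmb, with as few as 14 and 6 reads in a library, and the single P7 WT sample limits every P7 comparison.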

Other observations

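Among the companion macrophage genes, 2 rose from P4 to P7 in cKO while 19 fell. Of all genes tested, 14.5% were called higher and 14.7% lower in that comparison. Cd163, a receptor for haemoglobin bound to haptoglobin, was at 0.550, 0.582 and 0.659 CPM in P4 cKO and at 1.82, 1.66 and 1.65 CPM in P7 cKO (log2 fold change 1.51, SE 0.35, edgeR adjusted p = 0.00782). Irf8, a transcription factor of monocytes and dendritic cells, was at 6.36, 7.94 and 7.46 CPM in P4 cKO and at 9.84, 12.7 and 12.03 CPM in P7 cKO (log2 fold change 0.67, SE 0.21, edgeR adjusted p = 0.0339). In WT, Cd163 was at 1.62 and 0.855 CPM at P4 and at 2.39 CPM at P7, a log2 fold change of 0.95 (adjusted p = 0.165). In WT, Irf8 was at 5.16 and 7.01 CPM at P4 and at 7.14 CPM at P7. Both were named after their values were seen.

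Timd4, a marker of resident macrophages of embryonic origin in several organs, was at 0 to 0.263 CPM in the P4 samples, at 0.624 CPM in P7 WT and at 0.301 to 0.389 CPM in P7 cKO. Its level was too low for an order between the genotypes to be read from it. Markers of other blood cells summed to 0.729 to 10.9 CPM for mast cells, 2.02 to 3.21 CPM for T and NK cells and 0.798 to 5.99 CPM for B cells over the 9 samples. Those of dendritic cells summed to 12.1 to 53.5 CPM, of which Zbtb46 alone gave 10.36 to 48.6 CPM. Flt3 was at 0.911 to 5.19 CPM, and Xcr1, Clec9a and Siglech were at 0 to 1.04 CPM. Peritubular and stromal genes summed to 7230 and 8260 CPM in P4 WT, 7730 to 10400 CPM in P4 cKO, 4470 CPM in P7 WT and 3100 to 4780 CPM in P7 cKO.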
